A study of Sus scrofa with 32 samples.

Results

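The 7 mitochondrially encoded subunits of respiratory complex I (ND1, ND2, ND3, ND4L, ND4, ND5 and ND6) were examined in RNA sequencing libraries of pig liver and fat. The genes were chosen by their Ensembl identifiers, which are ENSSSCG00000018065 for ND1, ENSSSCG00000018069 for ND2, ENSSSCG00000018084 for ND3, ENSSSCG00000018086 for ND4L, ENSSSCG00000018087 for ND4, ENSSSCG00000018091 for ND5 and ENSSSCG00000018092 for ND6. All 7 were found among the 31908 genes of the deposited tables. They are 7 of the 13 protein genes of the mitochondrial genome. Each of the 7 passed the filter on low counts in every comparison.

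The animals were female Zlotnicka White pigs of 180 days, a local breed kept under the same feeding and housing at a test station and slaughtered at about the same body weight. They were chosen for high fat deposition (HFD) or low fat deposition (LFD), and 8 libraries were made from each of liver HFD, liver LFD, fat HFD and fat LFD. The fat group stands in the sample descriptions under a tag named for another trait, and the descriptions do not tie a liver library to the fat library of the same pig. Libraries of 1 group are separate samples of different replicate number, and p-values measure the spread between them.

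Complex I passes electrons from NADH to ubiquinone and pumps protons across the inner mitochondrial membrane. Its mitochondrially encoded subunits form the core of the membrane arm. The accessory subunits and the arm that holds the NADH site are encoded in the nucleus. Mitochondrial DNA is transcribed from both strands as long RNAs that are cut into shorter ones. The 6 plus-strand members therefore share a precursor, and ND6 alone of the protein genes comes from the other strand. Liver cells are rich in mitochondria, whereas white adipocytes hold few beside their lipid droplet.

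The members are printed here by their gene starts because their start codons differ, a feature of animal mitochondrial genes. The sequence is the mitochondrial record of the Sscrofa11.1 reference from RefSeq (16613 bases, breed Landrace), each is written 5′ to 3′ on the strand of its gene, and capitals mark the start codon. ND1 lies at MT:3922-4876, ND2 at MT:5087-6128, ND3 at MT:10653-10998, ND4L at MT:11069-11365, ND4 at MT:11359-12736 and ND5 at MT:12935-14755, all on the plus strand. ND6 lies at MT:14739-15266 on the minus strand. All are single-exon coding genes.
ND1: ATGttcataattaatattctaagcctaatt
ND2: ATTaatcccattatctacactacccttatc
ND3: ATAaatattatactaacactactcacaaac
ND4L: GTGccattagtatatataaacatcattata
ND4: ATGctaaaaattattatcccaacaacaata
ND5: ATAaacccattcgcctcactcacattaacc
ND6: ATGacaatgtatattgcatttattttaagt

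In 4 members (ND1, ND2, ND3 and ND4) the gene ends on a single T, and the stop codon is completed by polyadenylation. ND6 also differed in base composition. Its sense strand held 27.1% G and 7.2% C, against 9.6% to 12.8% G and 24.9% to 29.8% C in the other members.

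Neighbouring members overlap at 2 places, which bears on how reads can be assigned. The windows show the plus strand of the same record, and capitals mark the shared bases. ND4L and ND4 share 7 bases (MT:11359-11365) in the same direction, and whether their counts come from a shared RNA was not tested. ND5 and ND6 share 17 bases (MT:14739-14755) on opposite strands.
ND4L and ND4, MT:11348-11377: aaccttttacaATGCTAAaaattattatcc
ND5 and ND6, MT:14733-14762: cactatTTAATTACCACGAGTAAtctctat

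The library kit does not keep the strand of the RNA. Reads of ND6 therefore cannot be told apart from reads of the RNA transcribed from the opposite strand at the same place, nor reads of the 6 plus-strand members from their antisense RNA. Nuclear copies of mitochondrial DNA add a further limit to the assignment of reads. The nuclear chromosomes of the reference held a match covering about the whole gene for each member, at an identity from 84.5% for ND2 to 93.2% for ND6. Matches of at least 150 bases at 90% identity or more numbered 3 for ND1, 3 for ND2, 2 for ND3, 0 for ND4L, 2 for ND4, 1 for ND5 and 5 for ND6. Among matches of at least 150 bases the highest identity was 97.8% for ND2 and 97.3% for ND1. For the other members it ran from 86.5% for ND4L to 94.9% for ND6. The processing notes name STAR and RSEM, but the settings for reads with several matches were not given in the sources used here. The count of each member is therefore uncertain by such reads.

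Totals per library ran from 19837882 to 30457374 counts in liver and from 9409976 to 19484621 in fat. Hepatocyte markers (9 of 10 listed were matched) summed to 104544 to 170985 CPM (the count of a gene scaled to a fixed library total) in liver and to 164 to 522 in fat, and adipocyte markers (9 of 9) to 5809 to 25865 CPM in fat and 18.9 to 98.0 in liver, so each tissue carried the markers of its label. Skeletal muscle markers (5 of 10 matched) stayed at or below 5.42 CPM in every library. In 3 libraries the 10 most counted genes took over 40% of the counts: fat HFD 2 with 80.9%, liver LFD 7 with 47.2% and fat LFD 4 with 42.2%. Fat HFD 2 also had the lowest total, the lowest adipocyte sum and the highest hepatocyte sum of the fat libraries. Liver and fat were also counted in separate tables, liver from 2 sequencing runs and fat from 1, so tissue and sequencing run cannot be told apart.

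The 7 members took a larger share of the counts in fat than in liver. In liver they held 0.483% to 1.49% of the library, with a median of 0.884% over 16 libraries. In fat they held 0.152% to 3.13%, with a median of 1.89%. The lowest fat value was that of fat HFD 2, and the other 15 fat libraries ran from 1.10% to 3.13%. Without that library, the lowest fat value still lay below the highest liver value, so the tissues overlapped.

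**Figure D1:**
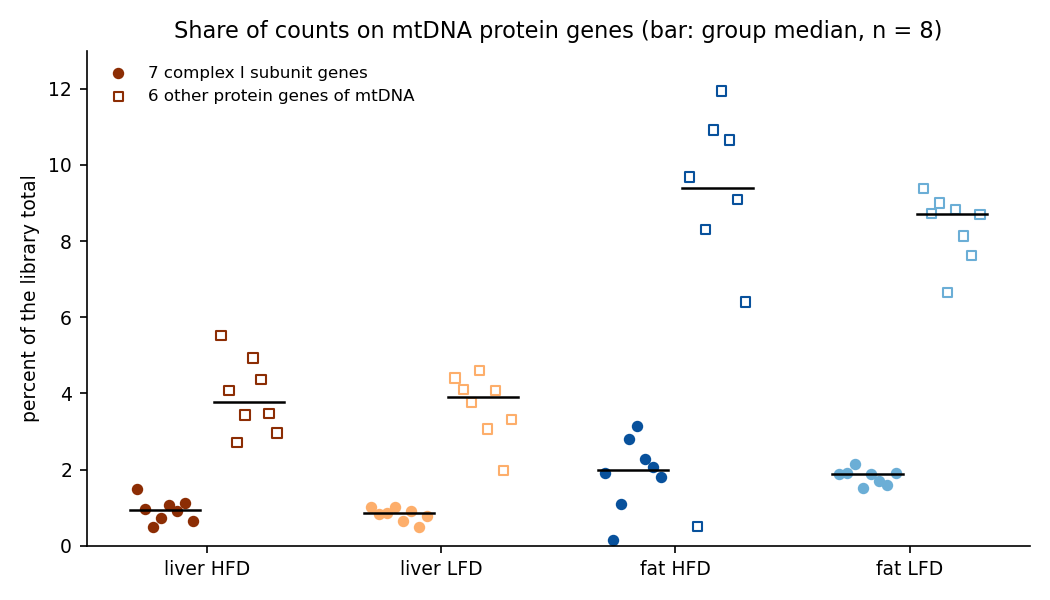
Percent of each library's counts on the 7 complex I subunit genes (filled circles) and on the 6 other protein genes of mitochondrial DNA (open squares), by tissue and fat group, with 8 libraries per group and bars at the group medians. Fat HFD 2 lies lowest on both sets, its 7 members holding 0.152%, and the other fat libraries lie above every liver library for the 6 other genes but overlap with liver, from 1.10% up, for the 7 members.

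The other 6 protein genes of mitochondrial DNA followed the same order of tissues. They held a median of 3.91% of counts in liver and 8.77% in fat. The complex I members thus made up a median of 18.3% of the mitochondrial protein-coding counts in liver and 18.0% in fat. Single libraries ran from 11.7% in fat HFD 3 to 24.2% in liver HFD 7.

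Levels of different members were compared per kilobase of gene, as CPM per kb without further scaling. ND4, an antiporter-like subunit that carries a proton channel, had the highest median of the members in both tissues. This median was 2652 CPM per kb in liver (1648 to 3697) and 5564 in fat (574 to 7330). ND4 stood above ND3, the next in median level, in 13 of 16 liver libraries and 16 of 16 fat libraries. In liver HFD 1, liver HFD 2 and liver LFD 6 the highest member was ND3, ND2 and ND1 in turn. In fat, ND2 was the highest in fat HFD 4, fat HFD 5 and fat HFD 6, and ND1 in fat LFD 4. ND3, a small subunit whose loop lies near the ubiquinone site, had a median of 1862 CPM per kb in liver and 3187 in fat.

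The rest of the order differed between tissues. In liver it went on with ND2 (median 1322 CPM per kb), ND1 (1041), ND4L (755), ND5 (562) and ND6 (474). Each of these neighbours overlapped in range, though the higher was above the lower within a library in 12 to 15 of 16 libraries. In fat the medians of ND6 (1949 CPM per kb), ND1 (1716), ND4L (1651) and ND5 (1593) lay close together, and a member stood above the next in this order in only 6 to 8 of 16 libraries. These 4 could not be ordered within fat. ND6 had the lowest median of the 7 in liver, while in fat its median lay between those of ND2 and ND1.

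**Figure D2:**
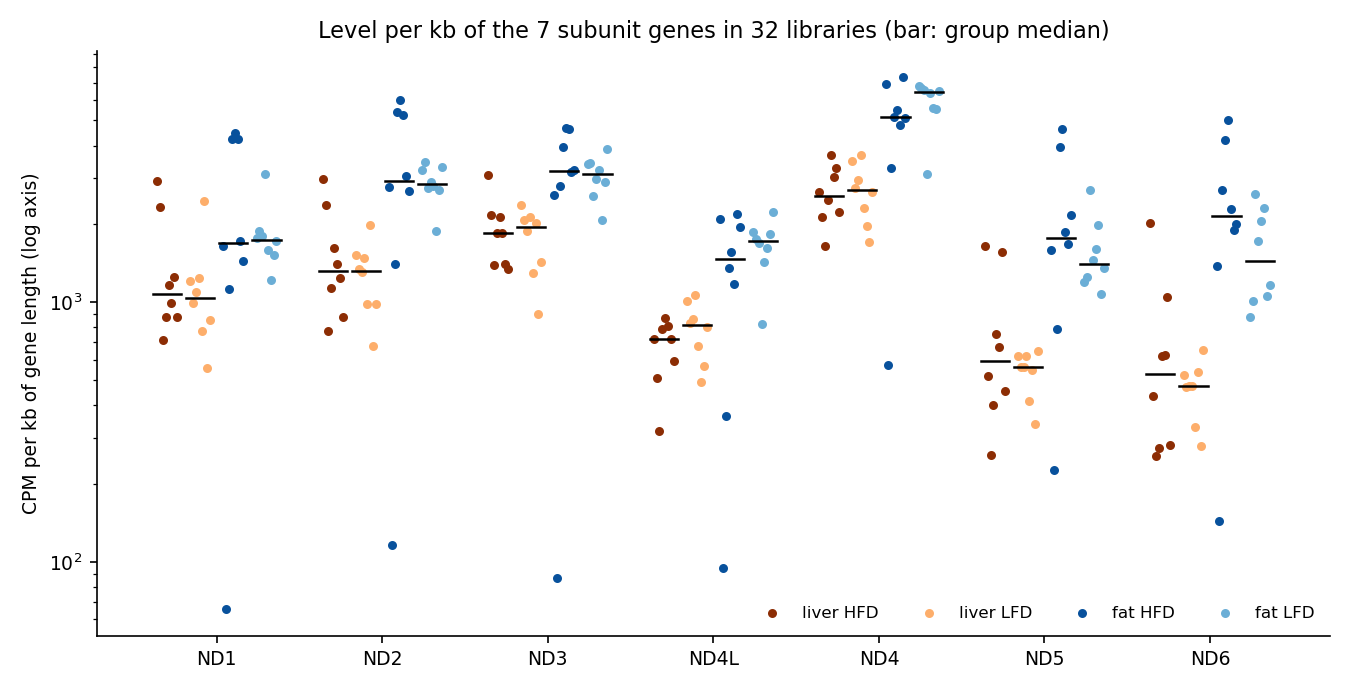
Level of each member per library, as CPM per kb of gene length on a log axis, by tissue and fat group (8 libraries per group, bars at group medians). ND4 has the highest median in each tissue though not the highest level in every library. Fat HFD 2 is the lowest fat library for every member, and ND6 moves up in the order of medians from liver to fat.

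The full order of the 7 was the same in 9 of 16 liver libraries, as ND4, ND3, ND2, ND1, ND4L, ND5 and ND6. In fat the most common order was found in 3 of 16 libraries.

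Libraries also differed in the ratio of ND1, ND2 and ND3 to ND4. The order varied in fat among libraries with a low ratio of ND1 to ND4 as well. ND1 sits at the base of the membrane arm where ubiquinone enters, and ND2 is another antiporter-like subunit. In 13 liver libraries the ratio of ND1 to ND4 counts lay between 0.218 and 0.301. In liver HFD 1, liver HFD 2 and liver LFD 6 it was 0.764, 0.757 and 0.871, with no library between. In fat, 12 libraries had a ratio of 0.0794 to 0.238, while fat HFD 4, fat HFD 5, fat HFD 6 and fat LFD 4 stood at 0.569, 0.564, 0.616 and 0.694. Both tissues thus held a set of libraries with a high ND1 to ND4 ratio, and both fat groups contributed to it in each tissue.

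The ratio of ND2 to ND4 parted the same libraries. It was 0.764 to 0.851 in the 3 liver libraries against 0.282 to 0.367 in the other 13, and 0.706 to 0.827 in the 4 fat libraries against 0.153 to 0.394 in the other 12. The ratio of ND3 to ND4 was 0.256 to 0.292 in those 3 liver libraries against 0.107 to 0.212, while in fat it was 0.192 to 0.242 against 0.0379 to 0.215 and the ranges overlapped. The ratio of ND4L, a small subunit beside ND4 in the genome, to ND4 did not part them in either tissue (0.0520 to 0.0587 within the range 0.0417 to 0.0719 in liver, 0.0527 to 0.0612 within 0.0239 to 0.0820 in fat). The 7 members together held 0.922% to 1.49% of counts in the 3 liver libraries and 1.51% to 3.13% in the 4 fat libraries, where fat LFD 4 with 1.51% was the lowest of the fat LFD group. The libraries are described by a ratio seen in the data and are not a group of the study.

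**Figure D3:**
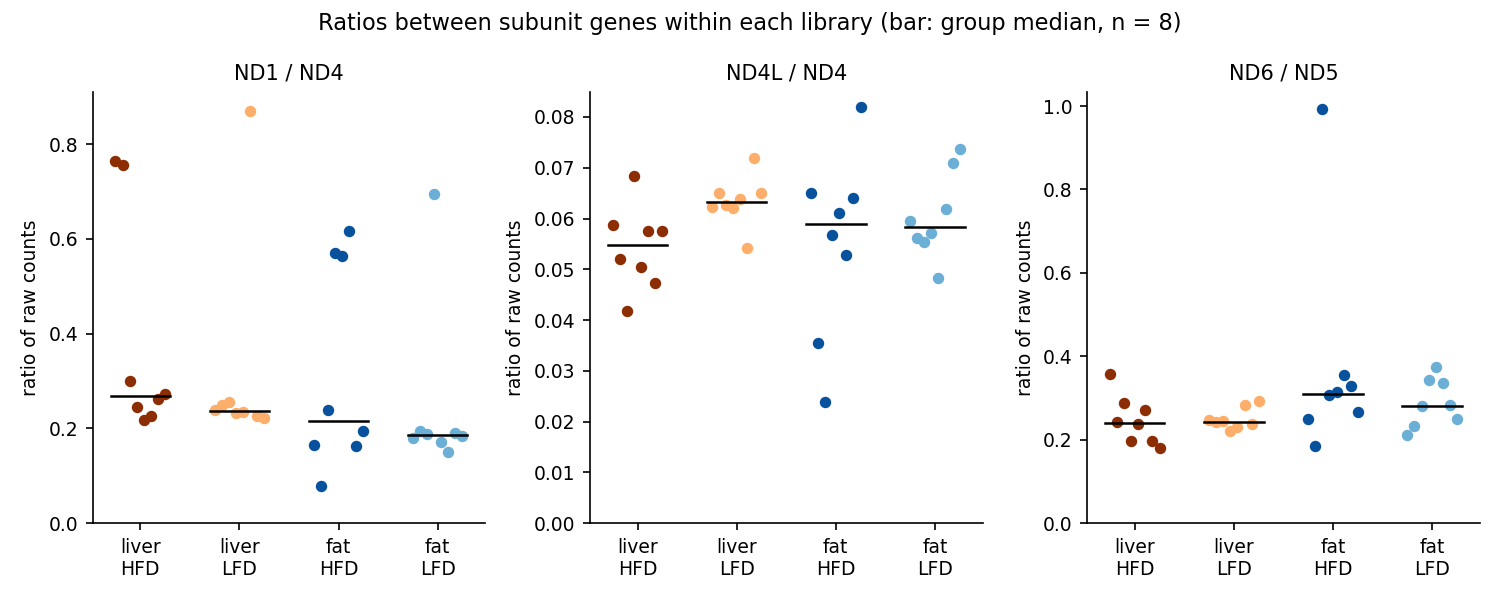
Ratio of raw counts of ND1 to ND4, ND4L to ND4 and ND6 to ND5 in each library, by tissue and fat group (8 libraries per group, bars at group medians, vertical axes from 0). For ND1 to ND4, 3 liver and 4 fat libraries stand at 0.564 or above and all others at 0.301 or below. For ND6 to ND5, fat HFD 3 stands alone at 0.993.

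For liver, ratios could be compared between the 2 sequencing runs of the same library, which covers counting error and not the making of the library. Run 2 divided by run 1 lay between 0.964 and 1.04 for ND1 to ND4 and between 0.876 and 1.08 for ND6 to ND5. Fat had 1 run per library and allowed no such comparison.

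ND5, the largest member and the outermost antiporter-like subunit, also varied relative to ND4. Its ratio to ND4 had a median of 0.269 in liver and 0.399 in fat. It reached 0.819 in liver HFD 1, 0.622 in liver HFD 7, 1.02 in fat HFD 4 and 1.11 in fat HFD 5. Of these libraries, liver HFD 7 alone did not have a high ND1 to ND4 ratio. In the libraries with a high ND1 to ND4 ratio, ND5 to ND4 was 0.322 to 0.819 in liver and 0.513 to 1.11 in fat. In the others it was 0.207 to 0.622 and 0.234 to 0.560, so the ranges overlapped.

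ND6, a small subunit next to ND4L in the membrane arm, followed ND5 in most libraries. The ratio of ND6 to ND5 counts was 0.181 to 0.357 over the 16 liver libraries. In fat it was 0.185 to 0.373 in 15 libraries and 0.993 in fat HFD 3. Per kilobase, ND6 stood at 3.42 times ND5 in that library, and at a median of 0.837 times in liver and 1.02 times in fat. Fat HFD 3 also had the lowest ratio of ND4L to ND4 among the fat libraries, at 0.0239. The strand of the reads was not kept, so it was not tested whether the ND6 counts of that library came from ND6 messenger.

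**Figure D4:**
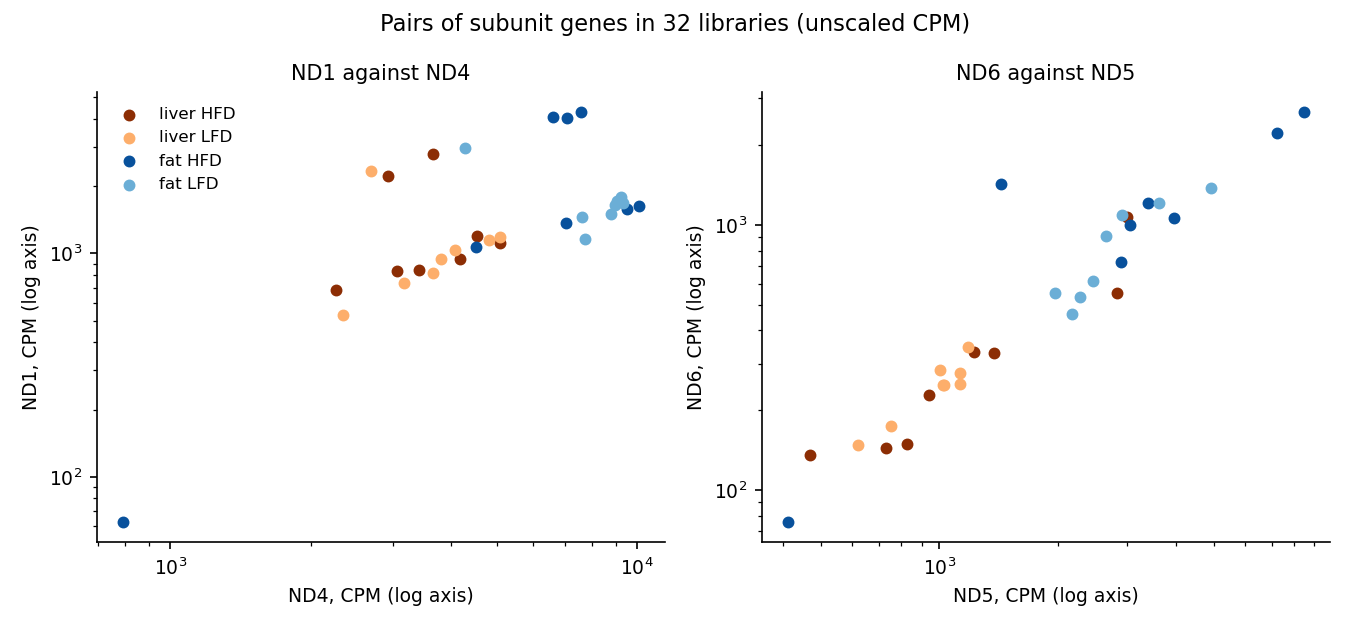
ND1 against ND4 and ND6 against ND5 in 32 libraries, as CPM without further scaling on log axes, coloured by tissue and fat group. The ND1 points lie in an upper band of 3 liver and 4 fat libraries and a lower band of the rest, and fat HFD 3 lies above the other points for ND6.

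Pairs of members differed in how far their levels moved together over the libraries of a tissue. Spearman correlations of normalised CPM over the 16 libraries were 0.94 in liver and 0.92 in fat for ND1 with ND2, 0.85 and 0.86 for ND2 with ND3, 0.84 and 0.79 for ND4L with ND4, and 0.89 and 0.74 for ND5 with ND6. These are genes that follow each other on the genome when only the members are counted. Of the other neighbours, ND4 with ND5 stood at 0.75 in liver and 0.26 in fat, and ND3 with ND4L at 0.48 and -0.06. High values were not limited to neighbours. ND1 with ND3 stood at 0.81 in both tissues and ND1 with ND5 at 0.65 in both. Among other pairs that are not neighbours, ND1 with ND4L stood at 0.17 in liver and 0.11 in fat, and ND4L with ND6 at 0.18 and -0.23. These values are descriptions over 16 points that share libraries and scaling. Without fat HFD 2 the fat values were 0.90 for ND1 with ND2, 0.84 for ND2 with ND3, 0.75 for ND4L with ND4 and 0.68 for ND5 with ND6.

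The comparison of HFD with LFD pigs asked whether the members differ with fat deposition within a tissue. It used edgeR's quasi-likelihood test with TMM scaling (trimmed mean of M-values) within the tissue and Benjamini-Hochberg adjustment over all genes tested. In liver, 0 of the 7 members passed an adjusted p of 0.05, as did 0 of 13051 genes tested (0%). An unadjusted p under 0.05 was found for 754 genes and for 0 members. DESeq2 called 5 genes and limma-voom 1, none of them a member. Log2 differences, HFD minus LFD, ran from -0.35 for ND4L to 0.46 for ND6, with a median of 0.17 against 0.00 for all genes. Adipocyte markers summed to 18.9 to 98.0 CPM in liver HFD and 20.4 to 42.5 in liver LFD, and their part in the members' values was not tested.

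ND1 showed the spread behind these values. Normalised CPM lay between 743 and 2714 in liver HFD (median 954) and between 691 and 2422 in liver LFD (median 1010). The groups covered nearly the same range, and the log2 difference was 0.18 (SE 0.31). Left out in turn, liver HFD 1 and liver LFD 6 moved it to -0.07 and 0.44.

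ND2 ranged from 820 to 3022 normalised CPM in liver HFD (median 1272) and from 930 to 2127 in liver LFD (median 1407), with a log2 difference of 0.17 (SE 0.26). For ND4 the range was 2469 to 5098 in liver HFD (median 3495) and 2782 to 5222 in liver LFD (median 3609), with a log2 difference of -0.13 (SE 0.16). The groups overlapped for both, and neither passed the test.

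ND5 was spread unevenly over the liver groups. Liver LFD libraries stayed between 706 and 1160 normalised CPM (median 1052), while liver HFD libraries ran from 511 to 2908 (median 1023). Liver HFD 1 and liver HFD 7, at 2908 and 2441, were the highest. The log2 difference of 0.41 (SE 0.30) was 0.15 without liver HFD 1.

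ND6 behaved alike, from 134 to 1037 normalised CPM in liver HFD (median 264) and from 163 to 313 in liver LFD (median 265). The medians were almost equal. The log2 difference of 0.46 (SE 0.37) was -0.01 without liver HFD 1.

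ND3 differed by 0.02 (SE 0.19) between the liver groups, at 416 to 1036 normalised CPM in HFD (median 618) and 419 to 835 in LFD (median 665). ND4L was the member with the smallest unadjusted p in liver. It ranged from 103 to 257 normalised CPM in HFD (median 197) and from 151 to 324 in LFD (median 242). In 7 of 8 HFD libraries ND4L lay below the LFD median, and 2 lay below every LFD library. The log2 difference was -0.35 (SE 0.18, 95% interval -0.73 to 0.02), with an adjusted p of 0.839 by edgeR.

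In fat, 0 of the 7 members and 0 of 13082 genes tested (0%) passed the edgeR test. An unadjusted p under 0.05 was found for 870 genes and for 0 members. DESeq2 called 49 genes and limma-voom 1, none of them a member. The 7 log2 differences had the signs found in liver, though limma-voom turned ND1, ND2 and ND3 to -0.31, -0.37 and -0.52. Their median was 0.21 against 0.02 for all genes. In fat HFD the hepatocyte markers summed to 170 to 522 CPM against 164 to 366 in fat LFD, and 7 of the 8 tested had an unadjusted p under 0.05 with a median log2 difference of 1.83, though none passed the adjusted test. Their part in the members' values was not tested.

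ND6 had the largest difference in fat. It ranged from 238 to 2579 normalised CPM in fat HFD (median 993) and from 431 to 1345 in fat LFD (median 766), so the groups overlapped. The log2 difference was 0.62 (SE 0.40, 95% interval -0.22 to 1.45), with an adjusted p of 0.855 by edgeR. In 6 of 8 HFD libraries ND6 lay above the LFD median. Without fat HFD 5 the log2 difference of ND6 was 0.38.

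ND5 ranged from 1289 to 8226 normalised CPM in fat HFD (median 2845) and from 1561 to 4806 in fat LFD (median 2398). Fat HFD 4 and fat HFD 5, at 6894 and 8226, stood above every LFD library. The log2 difference of 0.43 (SE 0.36) was 0.15 without fat HFD 5.

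The members with a high-ratio set again gave wide ranges. ND1 lay between 197 and 4160 normalised CPM in fat HFD (median 1434) and between 1039 and 3903 in fat LFD (median 1487), and its log2 difference was 0.32 (SE 0.45). ND2 lay between 380 and 6079 in fat HFD (median 2709) and between 1743 and 3970 in fat LFD (median 2809), with a log2 difference of 0.21 (SE 0.38). Neither passed the test, and the medians of the groups were close. Without fat HFD 5 the log2 difference was 0.11 for ND1 and 0.015 for ND2, and without fat LFD 4 it was 0.61 for ND1.

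ND3 differed by 0.03 (SE 0.35) on the log2 scale in fat, ND4 by -0.24 (SE 0.23) and ND4L by -0.28 (SE 0.31). ND4 ranged from 2482 to 8843 normalised CPM in fat HFD and from 5624 to 8849 in fat LFD. ND4L ranged from 88.0 to 574 in HFD and from 321 to 540 in LFD. The 2 lowest ND4L values in HFD, 88.0 in fat HFD 2 and 116 in fat HFD 3, lay below every LFD library. Without fat HFD 2 the 7 log2 differences ran from -0.14 for ND4L to 0.77 for ND6, and none passed the adjusted test.

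The difference of the HFD effect between tissues was tested in a model of all 32 libraries. It was called for 0 members and for 0 of 14324 genes (0%) by edgeR, with an unadjusted p under 0.05 for 896 genes and 0 members, and DESeq2 called 45 genes and no member. The members' values, liver effect minus fat effect, ran from -0.15 for ND6 to 0.12 for ND4 on the log2 scale. Their 95% intervals were wide with 8 libraries per group, from -1.27 to 0.97 for ND6, so differences of the effects within that range were not excluded.

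**Figure D5:**
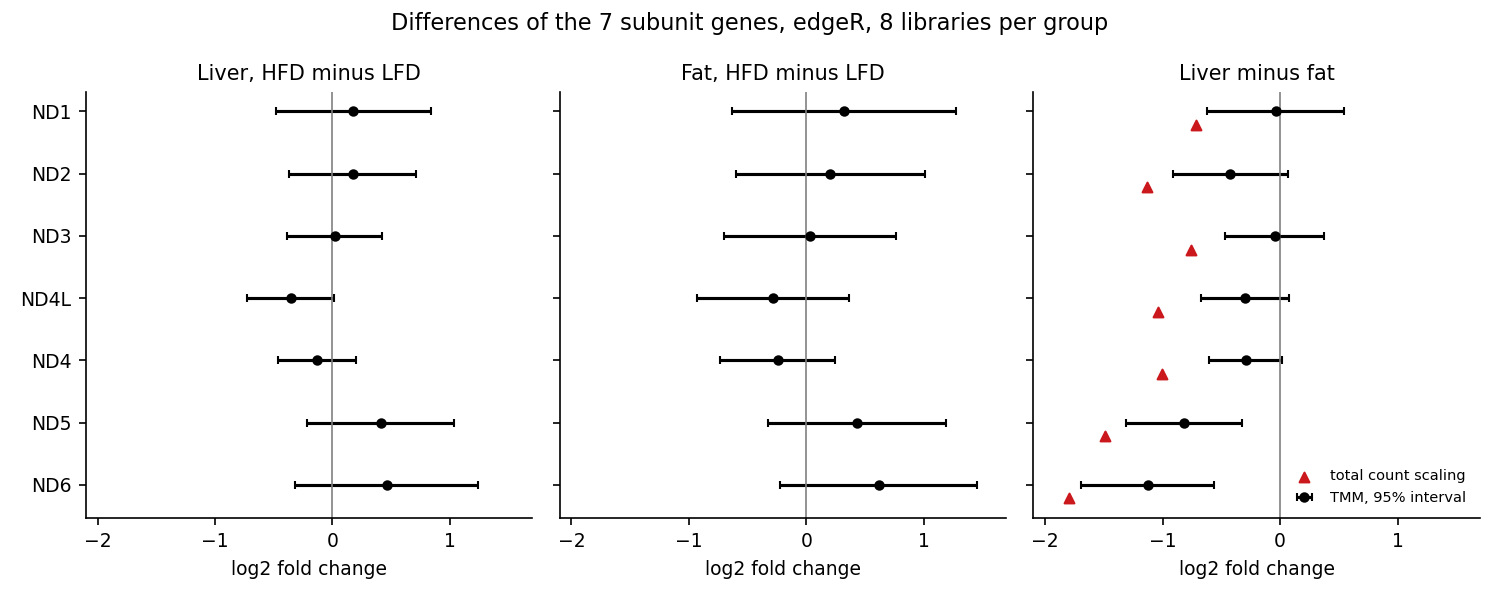
Log2 fold change of each member with its 95% interval (edgeR, TMM scaling) for HFD minus LFD in liver, HFD minus LFD in fat, and liver minus fat. Triangles in the last panel give the value under total count scaling. All intervals of the fat group comparisons cover 0, and ND5 and ND6 lie below 0 between tissues under both scalings.

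The comparison of liver with fat used all 32 libraries, scaled together by TMM, with the fat groups weighted equally. Liver and fat libraries were again taken as independent, without a term for the pig. ND5 and ND6 were lower in liver and passed the test, and the other 5 members did not. A lower level in liver was called for 5520 of 14324 genes (38.5%), so 2 of 7 members is a share close to that of all genes. Another 5858 genes were called higher in liver, and 0 members. Bulk libraries do not tell fewer cells of a type, or fewer mitochondria per cell, from less RNA per mitochondrion.

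ND6 had the largest difference. On the jointly scaled CPM it ranged from 165 to 1289 in liver (median 328) and from 204 to 2049 in fat (median 765). In 15 of 16 liver libraries it lay below the fat median, the exception being liver HFD 1, and the tissues overlapped. The log2 difference, liver minus fat, was -1.13 (SE 0.28), a level 2.18-fold higher in fat, with an adjusted p of 0.00048 by edgeR. The strand of the reads was not kept, so whether this difference lies in ND6 messenger or in RNA of the opposite strand was not tested.

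ND5 ranged from 631 to 3614 jointly scaled CPM in liver (median 1309) and from 1105 to 6535 in fat (median 2183). In 14 of 16 liver libraries it lay below the fat median. The log2 difference was -0.82 (SE 0.24), a level 1.76-fold higher in fat, with an adjusted p of 0.00299 by edgeR.

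ND4, ND2 and ND4L lay lower in liver by less. ND4 ranged from 3053 to 6427 jointly scaled CPM in liver (median 4343) and from 2129 to 7086 in fat (median 5703), with a log2 difference of -0.29 (SE 0.15, edgeR adjusted p 0.0807). ND2 ranged from 1010 to 3757 in liver (median 1615) and from 326 to 4830 in fat (median 2230), with a log2 difference of -0.42 (SE 0.24, edgeR adjusted p 0.108). In 13 of 16 liver libraries each of these lay below its fat median, but neither passed the test.

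ND4L ranged from 127 to 399 jointly scaled CPM in liver (median 269) and from 75.5 to 459 in fat (median 356), with a log2 difference of -0.30 (SE 0.18, edgeR adjusted p 0.132). ND1 and ND3 were nearly level between tissues on this scale. ND1 had medians of 1238 jointly scaled CPM in liver and 1160 in fat, and ND3 medians of 774 and 841. Their log2 differences were -0.04 (SE 0.29) and -0.05 (SE 0.21), with 95% intervals from -0.62 to 0.54 and from -0.47 to 0.38.

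The number of members called between tissues depended on the scaling. Under total count scaling all 7 members were called lower in liver, from 1.65-fold higher in fat for ND1 to 3.47-fold for ND6, where 60.7% of all genes were called lower. With TMM within each tissue 7 were called, where 62.7% of genes were lower, and with upper quartile scaling 5, where 46.7% were lower. The median log2 difference of all genes moved from 0.02 under TMM to -0.64 under total count scaling, -0.59 under TMM within each tissue and -0.19 under upper quartile scaling, and the share of lower among called genes from 48.5% to 74.3%, 72.7% and 58.7%. A scaling multiplies all genes of a library by the same factor, so values relative to the median gene change little by construction. The members' values relative to that gene ran from -0.06 for ND1 to -1.15 for ND6 under TMM. Under total count scaling they ran from -0.08 to -1.16. Their medians were -0.32 and -0.40.

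Single libraries also moved the count. Without fat HFD 2 it was 5, with ND2, ND4L and ND4 added, where 40.9% of all genes were called lower in liver. Without the 3 libraries in which 10 genes took over 40% of counts it was the same 5, where 40.4% of genes were lower. Within HFD libraries alone only ND6 was called, where 32.1% of genes were lower, and within LFD libraries alone ND2, ND4, ND5 and ND6, where 37.6% were. Whether the fat groups differ in this was covered by the interaction, which was not called.

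The nuclear subunits of complex I give the rest of the complex. Of 37 listed, 29 were matched to an identifier and all 29 were tested. Between tissues 12 were lower in liver and 5 higher, a share of lower genes close to the 38.5% of all genes, with a median log2 difference of -0.30 against 0.02 for all genes and -0.30 for the 7 members. NDUFA7, an accessory subunit, was lower by -1.06 (SE 0.17). NDUFB11 and NDUFS1, the latter the large iron-sulfur subunit, were higher by 0.51 (SE 0.14) and 0.48 (SE 0.14). Under total count scaling the split was 0 higher and 23 lower, against 3007 and 8698 of all 14324 genes. Upper quartile scaling gave 1 higher and 15 lower, against 4716 and 6696 of all genes. Between HFD and LFD pigs 0 of the 29 were called in liver or in fat, with median log2 differences of -0.08 and -0.03. In liver 2 and in fat 0 had an unadjusted p under 0.05.

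Of 15 complex I assembly factors tested, 5 were higher and 3 lower in liver, against 5858 higher and 5520 lower of all 14324 genes. FOXRED1, an oxidoreductase needed for complex I assembly, stood at 88.0 to 173 jointly scaled CPM in liver and 7.95 to 17.0 in fat, with no overlap, and a log2 difference of 3.53 (SE 0.12). ACAD9 was higher by 1.22 (SE 0.09), and DMAC2 and TIMMDC1 were lower by -0.92 (SE 0.06) and -0.90 (SE 0.09). Under total count scaling the split was 2 higher and 9 lower, against 3007 and 8698 of all 14324 genes. The median of the list lay within 0.05 of the median of all genes under both scalings, a distance that scaling changes little by construction.

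Of 23 genes for the transcription, replication and processing of mitochondrial RNA and DNA, 18 were higher in liver and 1 lower. Over all 14324 genes tested, 5858 were higher and 5520 lower. TWNK, the mitochondrial DNA helicase, was higher by 1.03 (SE 0.06) and FASTKD3, a mitochondrial RNA-binding protein, by 1.24 (SE 0.10). GRSF1, a protein of the mitochondrial RNA granules, was lower by -0.89 (SE 0.13). The members themselves were not higher in liver under any of these scalings. Under total count scaling, with 3007 of all 14324 genes higher and 8698 lower, this list turned to 5 higher and 9 lower. Its median relative to all genes, which scaling changes little by construction, was 0.44 under TMM and 0.42 under total count scaling.

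Of 9 regulators of mitochondrial biogenesis, 5 were higher and 4 lower in liver under TMM, and 3 higher and 5 lower under total count scaling. For all 14324 genes the splits were 5858 higher and 5520 lower, and 3007 higher and 8698 lower. PPARGC1A, a coactivator that drives mitochondrial gene programmes, stood at 14.1 to 42.7 jointly scaled CPM in liver and 0 to 0.318 in fat, where its counts were 0 to 9 per library. ESRRA was higher by 1.09 (SE 0.09). GABPB1 and PPARGC1B, a relative of PPARGC1A, were lower by -0.57 (SE 0.09) and -1.22 (SE 0.21).

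Of the other 6 protein genes of mitochondrial DNA, ATP6 was lower in liver by -0.62 (SE 0.19), COX1 by -0.58 (SE 0.19) and CYTB, which lies beside ND6 in the genome, by -0.40 (SE 0.19). ATP8, COX3 and COX2 did not pass, at -0.91 (SE 0.54), -0.26 (SE 0.20) and -0.20 (SE 0.21). The median of the 6 was -0.49 under TMM, where 38.5% of all genes were called lower. All 6 were called lower under total count scaling, where 60.7% of all genes were. Between HFD and LFD pigs 0 of the 6 were called in either tissue, and likewise 0 of the assembly, mitochondrial expression and regulator lists.

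Genes whose level was most like that of the members were ranked by the Spearman correlation with the mean scaled log2 CPM of the 7 over the 16 libraries of a tissue. Outside the mitochondrial genome these were RAB3GAP2 (0.89), MLIP (0.84) and CYP7A1 (0.83), the rate-limiting enzyme of bile acid synthesis, in liver, and TTC38 (0.87), CCNG1 (0.83) and MFSD8 (0.83) in fat. They were the top of all genes with a symbol, so high values arise from the search itself. Among the other mitochondrial genes COX1 was the most like in liver (0.94) and CYTB in fat (0.96).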

How the data were processed

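The authors used 16 pigs for RNA sequencing, made libraries with an unstranded TruSeq RNA kit and sequenced paired ends. Their processing notes name FastQC, STAR, RSEM and DESeq2 and the build Sscrofa11.1, and give no versions. They deposited whole-number counts per gene without normalization, which may be rounded RSEM estimates. Each of the 48 columns was mapped to a library, with 0 unmapped. The 2 runs of each liver library were added, and libraries were grouped by the sample descriptions.

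Members and gene lists were chosen with earlier results of these data known, so no list is independent evidence. In R 4.3.3, edgeR 4.0.16 was used with filterByExpr, TMM, robust dispersions and the quasi-likelihood test, two-sided, with Benjamini-Hochberg adjustment at 0.05. HFD and LFD were compared within each tissue, and liver with fat and the interaction over all 32 libraries. CPM are counts over the library total, normalised CPM are TMM-scaled within the tissue and jointly scaled CPM over both, and the ranking of genes most alike used log2 CPM with a prior count of 1. The scripts were tested on simulated data with 200 changed genes. Symbols were found for 15029 of 31908 identifiers. Named genes of a list were the called genes with the smallest p, at most 2 per direction (where called), the 3 genes most alike were taken per tissue, and the 7 members were named in full. One gene that the rule selects is not reported here.

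Alternatives were DESeq2 1.42.0, limma-voom (limma 3.58.1), total count, upper quartile and within-tissue TMM scaling, scaling without the members, no low-count filter, at least 10 counts in every library, each liver run, a block for the replicate number, HFD or LFD libraries alone, and a fit without each library in turn. Leaving out the 3 libraries with over 40% of counts on 10 genes was chosen after seeing the data. Nuclear matches were found with blastn 2.17.0 at an E-value limit of 1e-10. Figures used matplotlib 3.10.9 in Python 3.11.15. At totals from 9409976 to 30457374 the lowest count of a member was 264, so the spread between libraries and not counting set the precision, and the median SE of a log2 difference over all genes was 0.144 in liver and 0.195 in fat for HFD against LFD.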

Additional observations from a re-analysis of the deposited data

Results flagged for a closer look

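A gap test was run on 52 sets of values, each from a group of 8 libraries, and marked 10. It sets the distance of the extreme library to its neighbour, over the range, against Dixon's limit. Chance would mark about 5% of independent, normally distributed sets. These sets shared libraries and in part the same counts, and their distribution was not tested, so 10 cannot be set against that share. ND1 in fat LFD 4 was 3903 normalised CPM against 1039 to 1672 in the other LFD fat libraries. ND1 in liver LFD 6 was 2422 against 691 to 1213. The ratio of ND1 to ND4 counts was 0.694 in fat LFD 4 against 0.151 to 0.194, and 0.871 in liver LFD 6 against 0.223 to 0.255. In the HFD groups more than 1 library carried a high ratio, and no library of them was marked for it.

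ND6 in liver HFD 1 was 1037 normalised CPM against 134 to 478 in the rest of its group. The ratio of ND6 to ND5 counts in fat HFD 3 was 0.993 against 0.185 to 0.356. Of the library measures, the total of fat HFD 2 was 9409980 counts to 6 digits, against 14951700 to 19484600. The 10 most counted genes took 80.9% of counts in fat HFD 2 against 18.7% to 28.3%, 42.2% in fat LFD 4 against 19.4% to 26.1%, and 47.2% in liver LFD 7 against 22.6% to 25.9%.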

How the results depend on the processing

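Of 294 member values under alternatives other than leaving out a library, 252 kept direction and side of the threshold, 19 passed it in addition, 1 lost it (ND5 between tissues in HFD libraries alone, adjusted p 0.093 by edgeR) and 22 turned direction. None of the 22 passed the threshold in either fit. The cause of these changes was not tested. Scaling decided most between tissues, where members called numbered 7 under total count scaling, 5 under upper quartile and 7 under TMM within each tissue, against 2. They numbered 1 in HFD libraries alone, 4 in LFD libraries alone and 5 without the 3 libraries with over 40% of counts on 10 genes, while nuclear subunits called fell to 8 in HFD libraries alone. Genes called fell to 7349 when at least 10 counts were asked for in every library, which tests fewer genes.

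Genes called for HFD against LFD were 1 in liver under total count scaling, 5 under DESeq2, 1 under limma-voom and 1 with no low-count filter. In fat they were 49 under DESeq2, 1 under limma-voom and 1 without the 3 libraries. For the interaction they were 3 under total count scaling, 45 under DESeq2 and 1 without the 3 libraries.

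Under limma-voom, HFD minus LFD in fat was -0.31 for ND1, -0.37 for ND2 and -0.52 for ND3, and liver minus fat was 0.18 for ND1 and 0.15 for ND3. The interaction under limma-voom was 0.37 for ND1, 0.41 for ND2, 0.45 for ND3, 0.22 for ND4L and 0.01 for ND5. Under total count scaling it was 0.059 for ND2, 0.076 for ND3, 0.052 for ND4L and 0.11 for ND5. Without the 3 libraries, ND1 between tissues was 0.0061.

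Leaving out each library in turn gave 0 to 5 genes called in liver (5 without liver HFD 3), 0 to 2 in fat, 0 to 3 for the interaction and 11339 to 11770 between tissues, with 2 to 5 members (5 without fat HFD 2) and 16 to 20 nuclear subunits called between tissues. In liver, HFD minus LFD ran from -0.075 to 0.44 for ND1, -0.038 to 0.29 for ND2, -0.12 to 0.089 for ND3 and -0.014 to 0.58 for ND6, each lowest without liver HFD 1. In fat it ran from 0.11 to 0.61 for ND1, 0.015 to 0.37 for ND2, -0.087 to 0.20 for ND3, 0.15 to 0.59 for ND5 and 0.38 to 0.77 for ND6, each lowest without fat HFD 5. Liver minus fat ran from -0.21 to 0.065 for ND1 and -0.17 to 0.012 for ND3. The interaction ran from -0.43 to 0.12 for ND1, -0.23 to 0.17 for ND2, -0.18 to 0.12 for ND3, -0.21 to 0.055 for ND4L, -0.26 to 0.26 for ND5 and -0.61 to 0.090 for ND6.

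With the replicate number as a block, members called stayed at 0 in liver, 0 in fat, 0 for the interaction and 2 between tissues, where ND6 was -1.12 (edgeR adjusted p 0.00242) and ND5 -0.77 (edgeR adjusted p 0.00486). The block turned HFD minus LFD in fat to -0.069 for ND2 and -0.14 for ND3, liver minus fat to 0.019 for ND1, and the interaction to 0.031 for ND1, 0.10 for ND2, 0.13 for ND3 and 0.14 for ND4L. The numbers are not said to pair samples. Deviations from group means of libraries with the same number correlated at 0.0195 to 0.247 between the fat groups and at -0.0870 to 0.0778 between the liver groups, and 3 of 16 fat and 0 of 16 liver libraries correlated best with their own number. The block between tissues joined liver and fat libraries of the same number and fat group. These correlated at -0.114 to 0.126 in HFD and -0.153 to 0.239 in LFD. Here 0 of 16 HFD and 2 of 16 LFD libraries correlated best with their own number.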
